A study of Mus musculus with 9 samples.

Results

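The pyruvate dehydrogenase complex, the kinases and phosphatases that switch it and the carrier that feeds it were followed as 10 genes in 6620c1, a mouse pancreatic tumor cell line. They were picked by symbol from the gene expression table: 4 kinases (Pdk1, Pdk2, Pdk3 and Pdk4), 2 phosphatases (Pdp1 and Pdp2), 3 enzyme subunits (Pdha1, Pdhb and Dlat) and the carrier gene Mpc1, of 24493 rows in all. RNA was sequenced from 9 samples of a nutrient and oxygen deprivation experiment, 3 each from day 0, day 2 and day 14, and the column of each sample in the deposited table starts with WT, whose meaning is not given. The labels give the same medium for all 9 samples, day 0 included: a DMEM holding 2.5 mM glucose, with fetal calf serum cut to 0.5% and amino acids to 20% of the standard, and no further treatment. Whether day 0 cells had already been in this medium is therefore unclear, and with it whether a change against day 0 is one against undeprived cells. The labels give neither the oxygen level nor the medium used before day 0. No undeprived culture of 2 or 14 days was among the samples, so the effects of deprivation and of culture time cannot be told apart, and the labels do not say whether the samples of a day were separate cultures. The p-values therefore rest on a sample-to-sample spread that may be technical.

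The complex sits in the mitochondrial matrix, where it turns pyruvate into acetyl-CoA and so joins glycolysis to the citric acid cycle. The kinases phosphorylate its E1 alpha subunit and switch it off, and the phosphatases remove the phosphate and switch it on again. In cells short of oxygen, the transcription factor HIF is known to induce Pdk1, which diverts pyruvate to lactate. Pdk4 is known from muscle, heart and liver, where fasting induces it through FOXO and PPAR factors. The measurements below are of mRNA; phosphorylation and enzyme activity were not measured.

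Levels are TPM, shares of all transcripts that are corrected for transcript length and can be compared between genes. Fold changes are differences of log2(TPM + 1) from 1 limma fit over all 9 samples, a scale that understates changes of genes with low TPM, and a gene was called at a Benjamini-Hochberg adjusted p under 0.05 over the 12693 genes tested. Since TPM carry no read totals, library depth is unknown. All 10 genes passed the filter of at least 1 TPM in at least 3 samples, Pdk4 with exactly 3. Between 11569 and 12717 rows per library reached 1 TPM. A row named Mir6236 took from 8.27% to 22.5% of all TPM, most in day 2 replicate 3, so all other rows of that library are scaled down. Of the ductal markers, Krt7, Krt8, Krt18, Krt19 and Cdh1 were abundant. Epcam was low, with a mean of 2.23 TPM on day 0, 0.686 TPM on day 2 and 14.1 TPM on day 14. Together the 6 genes summed to 10785 to 11441 TPM on day 0, 5456 to 7572 TPM on day 2 and 6786 to 8543 TPM on day 14. Of the markers of other cells, 4 of 4 endothelial, 4 of 5 fibroblast, 3 of 5 acinar and 2 of 5 leukocyte genes stayed under 1 TPM in every library. The leukocyte genes summed to 25.5 to 30.8 TPM on day 0, 28.4 to 35.7 TPM on day 2 and 17.7 to 23.8 TPM on day 14, with Ptprc and Adgre1 under 1 TPM throughout, and the acinar genes to at most 5.92 TPM. Most of the leukocyte sum was Mrc1, which averaged 26.6 TPM on day 0, 27.99 TPM on day 2 and 10.4 TPM on day 14. The other 2 tested genes were higher at day 14 than at day 0, Csf1r at 3.97 against 0.215 TPM (limma, adjusted p = 0.000194) and Cd68 at 6.32 against 2.20 TPM (adjusted p = 0.00087). Of the ductal genes 4 of 6 fell at day 2, as the enzyme subunits did, where 31.9% of all tested genes fell. At day 14 against day 0, 3 of the 6 were lower, while Epcam and Cdh1 were higher (log2 fold changes 2.20 and 0.73). The shares of all tested genes were then 18.8% lower and 36.2% higher. The part of these shifts of marker genes in the results below was not tested.

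Of the kinases, Pdk1 and Pdk2 were far higher than at day 0 at both later times, Pdk3 was modestly higher, and Pdk4 stayed near the limit of the filter. Pdk1, the isoform that can phosphorylate every regulatory site of E1 alpha, stood at 11.4, 9.37 and 8.90 TPM in the day 0 libraries, 128, 127 and 132 TPM on day 2 and 75.7, 84.1 and 76.2 TPM on day 14. The days do not overlap, and the libraries of each day lie close together. Pdk1 averaged 129 ± 2.71 TPM on day 2 and 9.90 ± 1.33 TPM on day 0 (mean ± SD, n = 3 each), a ratio of 13.0 and a log2 fold change of 3.58 (limma, SE 0.11, adjusted p = 1.88e-07). At day 14 it averaged 78.7 ± 4.70 TPM, 7.95 times the day 0 mean, with a log2 fold change of 2.88 (limma, SE 0.11, adjusted p = 1.42e-06).

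Pdk2, a kinase expressed in most tissues, stood at 2.36, 2.69 and 2.23 TPM on day 0, 21.8, 14.4 and 14.96 TPM on day 2 and 19.1, 19.6 and 13.8 TPM on day 14. Every later library lay above every day 0 library, while day 2 and day 14 overlapped. The mean was 17.1 ± 4.14 TPM on day 2 and 2.43 ± 0.237 TPM on day 0 (mean ± SD, n = 3 each), a log2 fold change of 2.38 (limma, SE 0.19, adjusted p = 8.97e-06). The day 14 mean was 17.5 ± 3.21 TPM, with a log2 fold change of 2.42 from day 0 (limma, adjusted p = 2.77e-05). The difference of day 14 minus day 2 was 0.04 on the log2 scale, with an interval from -0.38 to 0.47, and was not called (adjusted p = 0.884).

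Pdk3, the kinase least held back by pyruvate, stood at 5.34, 5.75 and 5.14 TPM on day 0, 6.22, 9.70 and 7.96 TPM on day 2 and 7.77, 8.07 and 8.17 TPM on day 14. It was higher than at day 0 by 0.47 on the log2 scale at day 2 (limma, SE 0.15, adjusted p = 0.0236) and by 0.49 at day 14 (limma, SE 0.15, adjusted p = 0.0205). These calls were not firm. At day 2 the call was lost without day 0 replicate 1 or 3 or day 2 replicate 2 or 3 (adjusted p from 0.0538 to 0.0727), and the log2 fold change without day 2 replicate 2 was 0.33. At day 14 it was lost without day 0 replicate 1 or 3 or day 14 replicate 2 or 3 (adjusted p from 0.0517 to 0.0651), under median-of-ratios scaling at 0.23 (adjusted p = 0.201) and under quantile normalization at 0.03 (adjusted p = 0.887). Pdk4, the fasting-induced isoform, had 0.683, 0.543 and 0.804 TPM on day 0, 1.90, 0.539 and 1.21 TPM on day 2 and 1.18, 0.647 and 0.881 TPM on day 14. The days overlap, and Pdk4 was not called at day 2 (log2 fold change 0.36, interval -0.16 to 0.88, limma, adjusted p = 0.208) or at day 14 (0.18, interval -0.34 to 0.70, adjusted p = 0.535). Without day 2 replicate 2, the lowest of its day, it was called at day 2, with a log2 fold change of 0.60 (adjusted p = 0.0299), and also with sample weights (adjusted p = 0.0495).

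**Figure D1:**
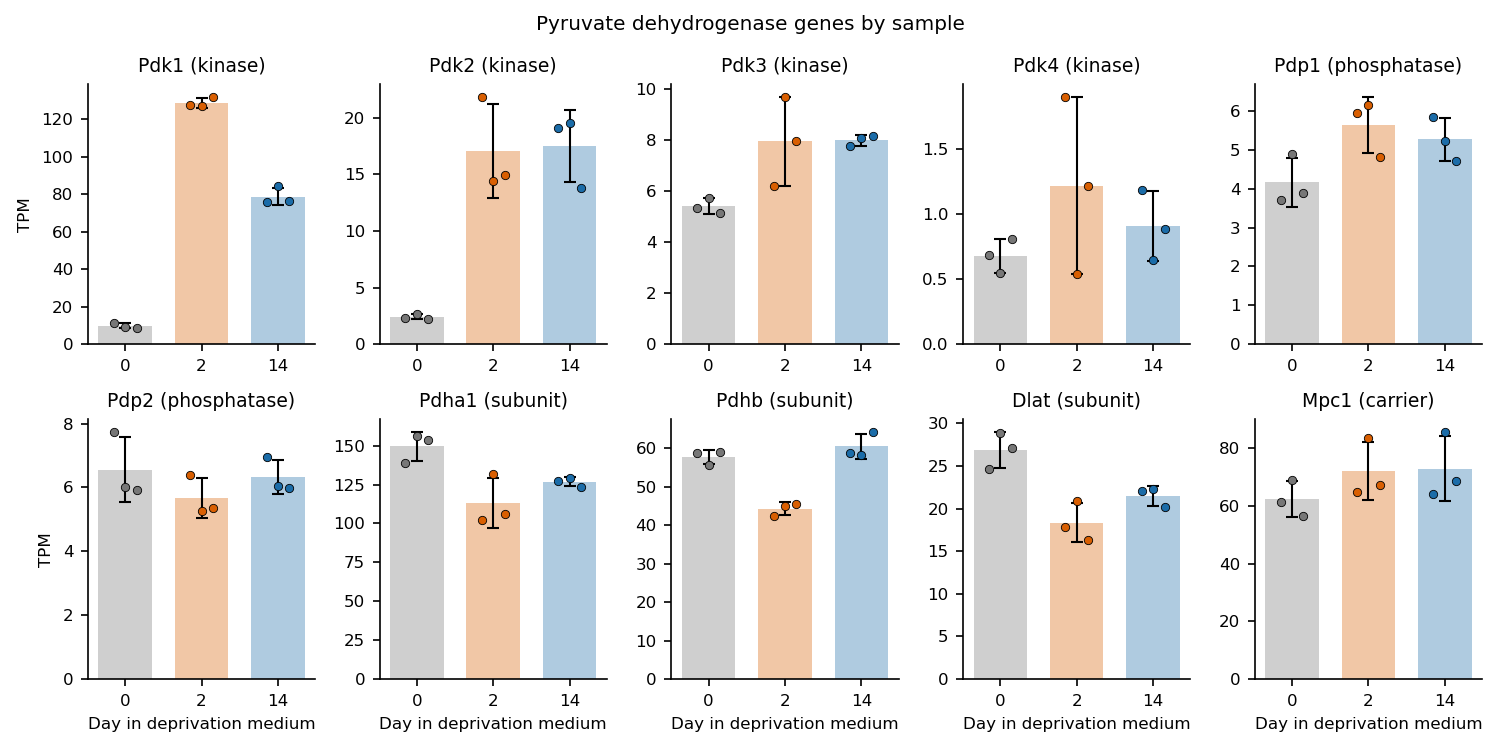
TPM of the 10 genes (vertical axes, each from 0) at day 0, 2 and 14 (horizontal axis); points are the 3 libraries of a day, bars their mean and error bars the SD. Pdk1 stands at 127 to 132 TPM on day 2 and Pdk2 at 14.4 to 21.8 TPM, above all day 0 libraries, while Pdha1, Pdhb and Dlat are lowest on average at day 2.

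The kinases with the large rise and the subunit they phosphorylate are shown by the 250 bases before their RefSeq start (build GRCm38.p6), since HIF is known to bind the core ACGTG or GCGTG. Capitals mark every match to these motifs on either strand, and of genes with 2 RefSeq starts the upstream one is shown. The windows are Pdk1 at chr2:71872974-71873223 on the plus strand, Pdk2 at chr11:95041372-95041621 on the minus strand and Pdha1 at chrX:160138431-160138680 on the minus strand.
Pdk1: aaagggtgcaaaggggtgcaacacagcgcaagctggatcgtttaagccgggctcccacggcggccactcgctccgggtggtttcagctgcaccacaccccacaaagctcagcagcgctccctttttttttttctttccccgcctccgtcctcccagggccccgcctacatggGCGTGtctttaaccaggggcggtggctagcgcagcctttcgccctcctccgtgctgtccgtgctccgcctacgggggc
Pdk2: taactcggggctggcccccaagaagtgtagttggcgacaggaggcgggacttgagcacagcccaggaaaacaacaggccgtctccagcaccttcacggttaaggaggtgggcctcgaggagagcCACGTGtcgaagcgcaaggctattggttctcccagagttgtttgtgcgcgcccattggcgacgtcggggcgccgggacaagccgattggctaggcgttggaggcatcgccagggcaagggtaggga
Pdha1: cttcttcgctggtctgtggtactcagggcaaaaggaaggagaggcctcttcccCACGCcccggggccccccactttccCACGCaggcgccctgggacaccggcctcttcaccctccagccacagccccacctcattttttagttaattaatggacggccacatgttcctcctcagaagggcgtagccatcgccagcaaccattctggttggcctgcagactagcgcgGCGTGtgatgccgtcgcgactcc

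The Pdk1 window held 1 match, a GCGTG that starts 78 bases before the transcript start. The Pdk2 window held ACGTG on both strands, overlapping within a single CACGTG that is also the E-box read by MYC and clock factors. The Pdha1 window held 3 matches to GCGTG. The second windows of Pdk1 and Pdk2 held none. Windows were found for 9 of the 10 genes, Pdp1 being the gene without one, and 8 of those 9 genes had a match in at least 1 window. Counted by window, 8 of their 12 windows held a match. Pdk3 had 4, Pdp2 and Pdhb 2 each, and Pdk4 and Mpc1 1 each, while Dlat had none. Of 32851 RefSeq windows of the same length, 38.6% held a match, 28.2% to GCGTG and 16.6% to ACGTG. A match is a stretch of letters and not a measured site, and motifs beyond these windows were not searched.

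The phosphatases were not called at either time. Pdp1, the calcium-stimulated form, stood at 3.72, 4.89 and 3.88 TPM on day 0, 5.94, 6.15 and 4.80 TPM on day 2 and 5.84, 5.23 and 4.72 TPM on day 14. Day 2 replicate 3 lay below the highest day 0 library, and the log2 fold change at day 2 was 0.36 (interval 0.03 to 0.69, limma, adjusted p = 0.0567). It was called with Mir6236 and Rn45s removed (0.47, adjusted p = 0.0131), with the 20 most abundant rows removed (0.52, adjusted p = 0.00827), under median-of-ratios scaling (adjusted p = 0.0366), without a variance trend (adjusted p = 0.0447), and without day 0 replicate 2 (adjusted p = 0.0434) or day 2 replicate 3 (adjusted p = 0.0324). At day 14 its log2 fold change was 0.28 (interval -0.05 to 0.61, adjusted p = 0.126). Pdp2, the form that does not need calcium, stood at 7.75, 6.01 and 5.92 TPM on day 0, 6.39, 5.25 and 5.36 TPM on day 2 and 6.96, 6.05 and 5.99 TPM on day 14, so that the days overlap. Its log2 fold changes were -0.18 at day 2 (interval -0.49 to 0.14, limma, adjusted p = 0.301) and -0.04 at day 14 (interval -0.35 to 0.28, adjusted p = 0.831). Under quantile normalization Pdp2 was called lower at day 14, at -0.51 (adjusted p = 0.0131), and Pdp1 stood at -0.27 (adjusted p = 0.12).

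All 3 enzyme subunits were called lower at day 2, and none of them at day 14. Pdha1, which codes for the E1 alpha subunit that the kinases phosphorylate, stood at 139, 156 and 154 TPM on day 0, 102, 132 and 106 TPM on day 2 and 128, 129 and 124 TPM on day 14. Its mean was 113 ± 16.1 TPM on day 2 and 149.5 ± 9.47 TPM on day 0 (mean ± SD, n = 3 each), a log2 fold change of -0.40 (limma, SE 0.11, adjusted p = 0.0117). Pdhb, the E1 beta subunit, stood at 58.8, 55.8 and 59.0 TPM on day 0, 42.4, 45.1 and 45.5 TPM on day 2 and 58.9, 58.4 and 64.4 TPM on day 14. Its day 2 libraries lay below all others, with a log2 fold change from day 0 of -0.38 (limma, SE 0.09, adjusted p = 0.00497). Dlat, the E2 subunit that carries the acetyl group on its lipoyl arm, stood at 24.6, 28.9 and 27.1 TPM on day 0, 17.9, 20.9 and 16.3 TPM on day 2 and 22.1, 22.3 and 20.2 TPM on day 14. It had a log2 fold change of -0.53 at day 2 (limma, SE 0.12, adjusted p = 0.00429).

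The fall of Pdha1 and Pdhb at day 2 depended on how libraries were scaled to each other, though each kept its call in 20 of the 22 alternatives. Under quantile normalization their log2 fold changes at day 2 were -0.00 and -0.10 (adjusted p = 0.973 and 0.396), and with the 20 most abundant rows removed they were -0.24 and -0.21 (adjusted p = 0.0543 and 0.0652). Dlat kept its call at day 2 under all 22 alternatives, with log2 fold changes from -0.63 to -0.37. At day 14 none of the 3 subunits was called against day 0 by limma, at log2 fold changes of -0.23 for Pdha1 (adjusted p = 0.101), 0.06 for Pdhb (adjusted p = 0.56) and -0.31 for Dlat (adjusted p = 0.0531), while the unadjusted p was under 0.05 for Dlat (0.0296). The median of all tested genes was 0.22 in that comparison, and relative to it Pdha1 stood at -0.45 and Dlat at -0.53. Under median-of-ratios scaling, which moved that median to -0.05, Pdha1 fell by 0.53 and Dlat by 0.59 on the log2 scale (adjusted p = 0.00147 and 0.000913). Dlat was called in 10 of the 22 alternatives at day 14, among them without day 2 replicate 2 (adjusted p = 0.0333) or 3 (adjusted p = 0.0411). Pdha1 was called in 4, among them without day 2 replicate 2 (adjusted p = 0.0371).

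Mpc1, which pairs with Mpc2 in the heterodimer that carries pyruvate through the inner mitochondrial membrane, stood at 61.6, 69.1 and 56.5 TPM on day 0, 65.0, 83.6 and 67.5 TPM on day 2 and 64.3, 85.8 and 68.9 TPM on day 14. The days overlap, and replicate 2 was the highest of each day. The log2 fold change was 0.20 at day 2 (interval -0.13 to 0.53, limma, adjusted p = 0.26) and 0.22 at day 14 (interval -0.11 to 0.54, adjusted p = 0.228). At day 2 it was called under quantile normalization (0.51, adjusted p = 0.0154) and with the 20 most abundant rows removed (0.37, adjusted p = 0.0373).

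Set side by side by role, at day 2 against day 0, 3 of 4 kinases rose and 3 of 3 subunits fell, while 0 of 2 phosphatases were called and the carrier was not. In that comparison 27.1% of all tested genes were called higher and 31.9% lower, 59.0% in all, so that 6 calls among 10 genes is near the background. The median log2 fold change was 1.42 for the kinases, 0.09 for the phosphatases and -0.40 for the subunits, against -0.02 for all tested genes. At day 14 against day 0, 3 of 4 kinases were higher and no other gene of the 10 was called, where 36.2% of all tested genes were higher and 18.8% lower, 55.1% in all. The medians were then 1.46 for the kinases, 0.12 for the phosphatases and -0.23 for the subunits, against 0.22 for all tested genes. Pdk1 and Pdk2 lay above the 90th percentile of the log2 fold changes of all tested genes, which was 1.05 at day 2 and 1.197 at day 14. Groups did not overlap for 3 genes in each direction at day 2 against day 0, where 31.7% of tested genes were higher and 34.8% lower without overlap. At day 14 against day 0 it was 3 genes higher and 2 lower, where 43.2% of tested genes were higher and 23.3% lower without overlap.

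**Figure D2:**
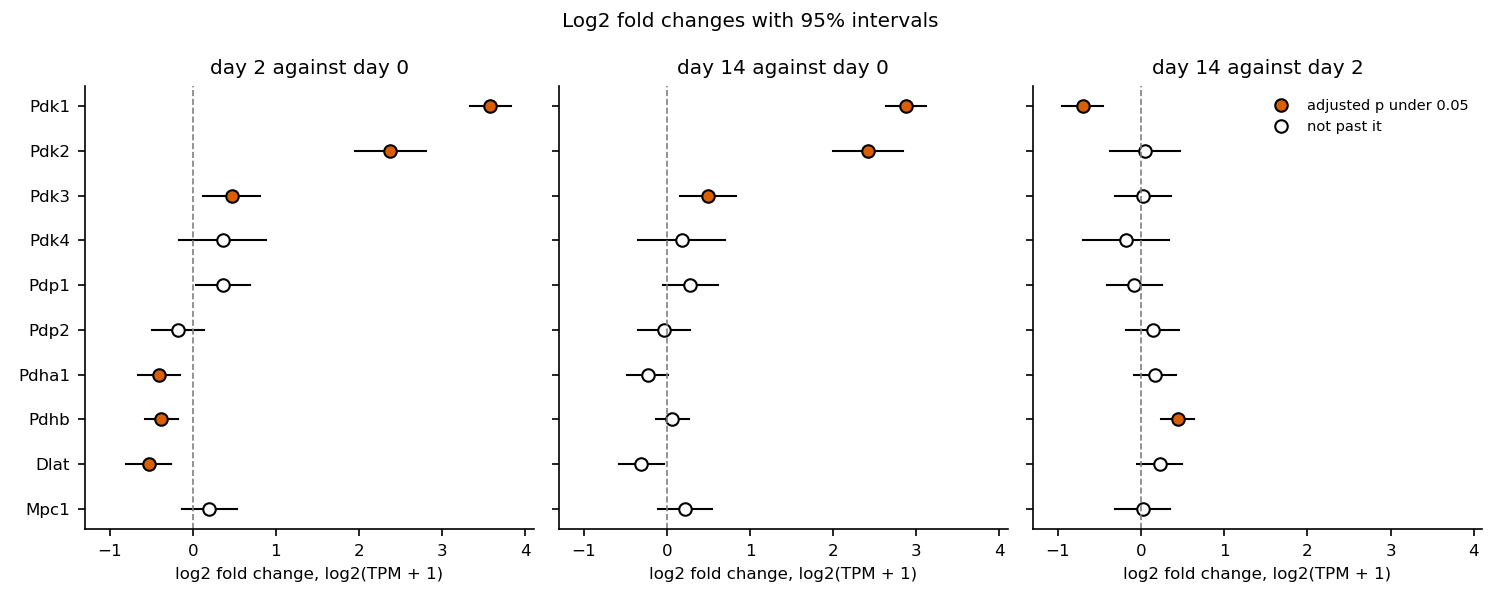
Log2 fold change of log2(TPM + 1) (horizontal axis) for the 10 genes (rows) in each comparison (panels), with 95% intervals from limma; filled points passed an adjusted p of 0.05. Pdk1 at 3.58 and Pdk2 at 2.38 lie far to the right at day 2, and the 3 subunits lie between -0.53 and -0.38.

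Ratios within a library stay the same when all its values are scaled by 1 factor, but quantile normalization can change them. The ratios and the sums of TPM are given here as descriptions without a test. The summed kinase TPM was 18.4 ± 1.36 at day 0, 155 ± 3.30 at day 2 and 105 ± 6.75 at day 14 (mean ± SD, n = 3 each). The summed phosphatase TPM was 10.7 ± 0.843 at day 0, 11.3 ± 1.09 at day 2 and 11.6 ± 1.08 at day 14. The ratio of kinase to phosphatase transcripts was thus 1.72 ± 0.0297 at day 0, 13.8 ± 1.36 at day 2 and 9.11 ± 0.933 at day 14. Its lowest value was 12.8 at day 2 and 8.11 at day 14, while its highest at day 0 was 1.74. Kinase transcripts per Pdha1 transcript stood at 0.124 ± 0.0167 at day 0, 1.39 ± 0.210 at day 2 and 0.828 ± 0.0357 at day 14, and no 2 days overlap. Among the subunits, Pdha1 to Dlat was 5.57 ± 0.152 at day 0, 6.17 ± 0.398 at day 2 and 5.91 ± 0.190 at day 14, with every later library above those of day 0. Pdha1 to Pdhb was 2.59 ± 0.220 at day 0, 2.56 ± 0.322 at day 2 and 2.10 ± 0.159 at day 14, with every day 14 library below those of day 0 and day 2.

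**Figure D3:**
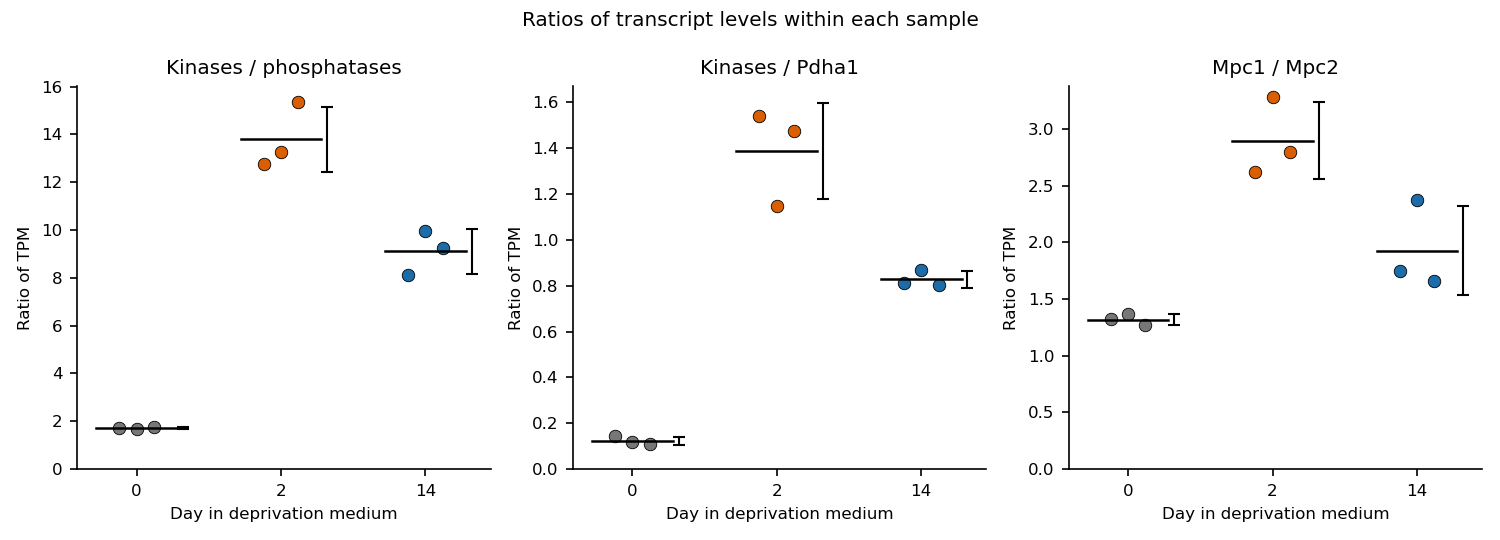
Ratios of TPM within each library (vertical axes, from 0) at day 0, 2 and 14 (horizontal axis); points are libraries, lines the mean and error bars the SD. Kinases per phosphatase transcript lie between 12.8 and 15.3 at day 2 and kinases per Pdha1 transcript between 1.15 and 1.54, and Mpc1 per Mpc2 transcript is highest at day 2, between 2.62 and 3.28.

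The make-up of the kinase pool changed as well. Pdk1 made up 53.6% ± 3.54 of kinase TPM on day 0, 83.1% ± 1.85 at day 2 and 74.9% ± 1.99 at day 14 (mean ± SD, n = 3 each). Pdk3, the next most abundant at day 0 with 29.5% ± 2.24, made up 5.15% ± 1.23 at day 2 and 7.64% ± 0.548 at day 14. Pdk2 made up 13.2% ± 1.38 at day 0, 11.0% ± 2.48 at day 2 and 16.6% ± 2.35 at day 14, and took the place after Pdk1 at both later times. Pdk4 made up 3.71% ± 0.902, 0.779% ± 0.423 and 0.868% ± 0.282 at day 0, 2 and 14.

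**Figure D4:**
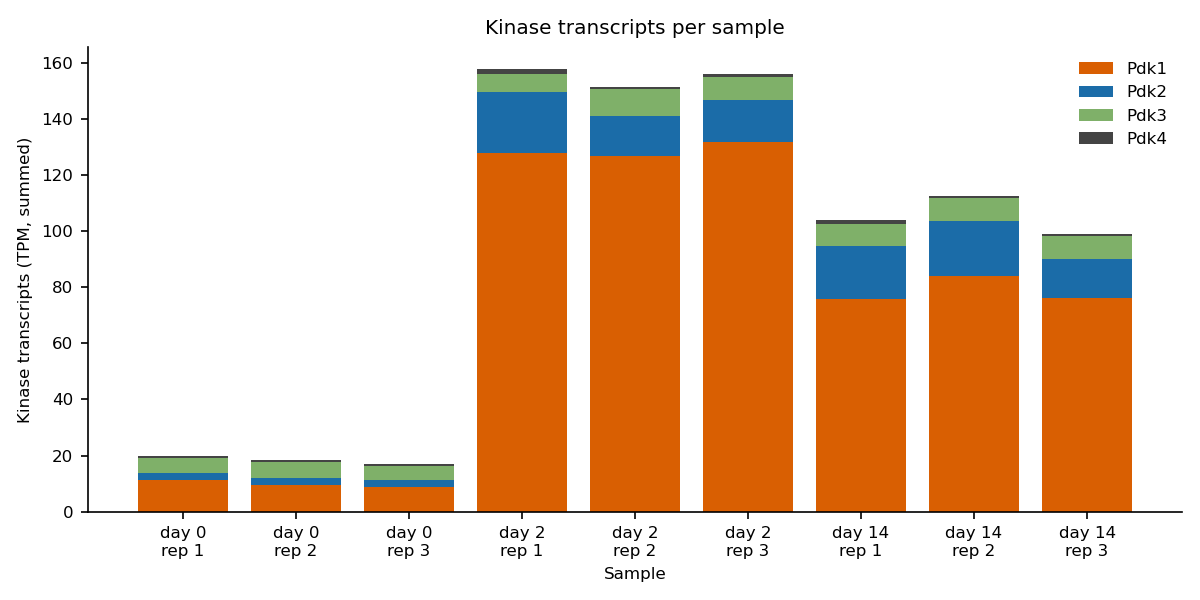
Summed TPM of the kinases (vertical axis) in each of the 9 libraries (horizontal axis), split by kinase. The stack reaches 17.1 to 19.8 TPM on day 0, 151 to 158 TPM on day 2 and 99.1 to 112 TPM on day 14, and Pdk1 is the largest part of each.

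Day 14 was set against day 2 to compare long with early deprivation, which is also the test of unequal changes since day 0. Pdk1 was lower at day 14 than at day 2, at 78.7 ± 4.70 against 129 ± 2.71 TPM, a log2 fold change of -0.71 (limma, SE 0.11, adjusted p = 0.00164). In this comparison 31.2% of all tested genes were called, and 3.79% were lower. That share depended on the scaling: 481 genes were lower in the main fit, 1487 under median-of-ratios scaling and 1902 under quantile normalization. Pdhb was higher at day 14, at 60.5 ± 3.32 against 44.3 ± 1.68 TPM (log2 fold change 0.44, SE 0.09, limma, adjusted p = 0.00581), where 27.4% of all tested genes were higher. The median of all tested genes was 0.25, and under median-of-ratios scaling, which moved it to -0.01, the log2 fold change of Pdhb was 0.16 (adjusted p = 0.224); quantile normalization gave 0.19 (adjusted p = 0.172). Pdk1 kept its call under all 22 alternatives, from -0.998 to -0.674. Both changes were without overlap between the groups, as were 35.1% of tested genes that were higher and 6.11% that were lower. The other 8 genes were not called, with log2 fold changes from -0.18 for Pdk4 to 0.22 for Dlat. Without day 2 replicate 2, Pdha1 was called higher at 0.28 (adjusted p = 0.0438), and under quantile normalization Pdp1 was called lower at -0.51 (adjusted p = 0.0214).

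In order of level, Pdha1 led at day 0 with 149.5 TPM, followed by Mpc1, Pdhb, Dlat, Pdk1, Pdp2, Pdk3, Pdp1, Pdk2 and Pdk4, and only the ranges of Mpc1 and Pdhb overlapped among neighbours. At day 2 Pdk1 stood first with 129 TPM, though its range overlapped that of Pdha1. Dlat and Pdk2, Pdk3 and Pdp2, and Pdp2 and Pdp1 also overlapped. At day 14 Pdha1 led again with 127 TPM and Pdk1 came next, overlapping Mpc1, which overlapped Pdhb. The remaining neighbours of that day did not overlap, and Pdk4 was last on every day.

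Other genes of the pathway came from lists written from textbook knowledge, and 42 of 49 were tested. At day 2 against day 0, 16 rose and 11 fell (median log2 fold change 0.14), and at day 14 against day 0, 15 were higher and 9 lower, with a median of 0.14. The shares over all tested genes were 27.1% higher and 31.9% lower at day 2, and 36.2% and 18.8% at day 14, and the calls among the 42 genes in both directions together are near the 59.0% and 55.1% of all tested genes. The counts by list below are descriptions. Among the remaining parts of the complex, Pdhx, which tethers E3 to the core, had 7.61 ± 0.701 TPM on day 2 and 19.9 ± 1.21 TPM on day 0 (mean ± SD, n = 3 each), a log2 fold change of -1.28 (limma, adjusted p = 2.16e-05), and was still lower at day 14, with 14.1 ± 1.39 TPM and -0.47 (adjusted p = 0.00858). Its day 14 level was above its day 2 level (log2 fold change 0.81, adjusted p = 0.00119). Dld, the E3 enzyme shared with sister complexes, stood at 71.8 ± 7.46 TPM on day 0, 75.8 ± 17.8 TPM on day 2 and 78.3 ± 6.46 TPM on day 14 and was not called (adjusted p = 0.781 and 0.533 at day 2 and day 14 against day 0). Pdpr, the regulatory subunit that restrains the phosphatase, rose to 15.2 ± 1.79 TPM on day 2 against 6.77 ± 0.869 TPM on day 0 (log2 fold change 1.06, limma, adjusted p = 0.000183) and was at 15.6 ± 1.54 TPM on day 14 (1.10, adjusted p = 0.000236). The testis form Pdha2 was listed at 0 in every library.

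Mpc2, the partner of Mpc1 in the carrier, fell while Mpc1 was not called. It had 24.8 ± 0.671 TPM on day 2 and 47.2 ± 3.03 TPM on day 0 (mean ± SD, n = 3 each), a log2 fold change of -0.90 (limma, SE 0.10, adjusted p = 6.41e-05), and 38.1 ± 3.01 TPM on day 14 (-0.30, adjusted p = 0.0277). The day 14 call was lost without day 0 replicate 1 or 2 or day 14 replicate 1 or 2 (adjusted p from 0.0626 to 0.12). Mpc1 to Mpc2 was 1.32 ± 0.0494 at day 0, 2.90 ± 0.342 at day 2 and 1.93 ± 0.392 at day 14, and the days do not overlap.

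A list of 5 genes covered the making and attachment of lipoate, the cofactor of Dlat, with the supply of iron-sulfur clusters for it. Of these, 2 fell at day 2, where 31.9% of all tested genes fell, and 1 was lower at day 14, where 18.8% were. Bola3, which helps supply iron-sulfur clusters to lipoate synthase, had 54.4 ± 4.64 TPM on day 2 and 202 ± 11.1 TPM on day 0 (mean ± SD, n = 3 each; log2 fold change -1.87, limma, adjusted p = 5.33e-06), and 128 ± 22.2 TPM on day 14 (-0.66, adjusted p = 0.00312). Lias, lipoate synthase itself, fell by 0.61 on the log2 scale at day 2 (limma, adjusted p = 0.013).

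Of the 6 tested genes of pyruvate kinase, lactate dehydrogenase and lactate transport, 4 rose and 1 fell at day 2, and 3 were higher and 1 lower at day 14, beside 27.1% and 31.9% of all tested genes at day 2 and 36.2% and 18.8% at day 14. Ldha, which reduces pyruvate to lactate, rose to 3762.5 ± 209 TPM on day 2 against 1416 ± 156 TPM on day 0 (mean ± SD, n = 3 each; log2 fold change 1.41, limma, adjusted p = 1.59e-05). Ldha transcripts per Pdha1 transcript were 9.53 ± 1.59 at day 0, 33.5 ± 2.71 at day 2 and 20.4 ± 2.89 at day 14. Pkm, which makes pyruvate, was higher at day 2 by 0.89 on the log2 scale (adjusted p = 0.000176) and not called at day 14 (0.18, adjusted p = 0.218). Slc16a3, the lactate exporter of glycolytic cells, had 225 ± 29.5 TPM on day 2 and 12.7 ± 5.51 TPM on day 0 (log2 fold change 4.13, limma, adjusted p = 3.31e-06). Slc16a3 per Mpc1 transcript stood at 0.202 ± 0.0856 at day 0, 3.18 ± 0.707 at day 2 and 2.62 ± 0.365 at day 14. Slc16a1, the other lactate transporter tested, fell by 1.03 on the log2 scale at day 2 (limma, adjusted p = 6.86e-05). Ldhd, a D-lactate dehydrogenase, had log2 fold changes of 0.81 and 1.01 at day 2 and day 14 (adjusted p = 0.0385 and 0.0167), calls that were lost in some alternatives at adjusted p up to 0.131 and 0.0827. The libraries whose removal ended them were day 0 replicates 1, 2 and 3, day 2 replicates 1 and 3 and day 14 replicate 2 at day 2, and day 0 replicate 1 and day 14 replicate 1 at day 14.

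Among other routes of pyruvate, 3 of 5 tested genes rose at day 2, where 27.1% of all tested genes rose, and 3 were higher and 1 lower at day 14, where 36.2% and 18.8% were. Pcx, pyruvate carboxylase, which competes with the complex for pyruvate, had 28.3 ± 4.29 TPM on day 2 and 12.1 ± 0.300 TPM on day 0 (mean ± SD, n = 3 each; log2 fold change 1.15, limma, adjusted p = 0.000247), and 31.2 ± 6.02 TPM on day 14 (1.28, adjusted p = 0.00022). Gpt2, the mitochondrial alanine aminotransferase, rose by 1.82 and 2.27 on the log2 scale at day 2 and day 14 (adjusted p = 0.000539 and 0.00024). Me1, the cytosolic malic enzyme, was higher at both times, by 0.82 and 0.93, while the mitochondrial Me2 was lower at day 14, with a log2 fold change of -0.60 (adjusted p = 0.00104).

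In the sister complexes, 2 of 7 genes rose and 4 fell at day 2, beside 27.1% and 31.9% of all tested genes, and 2 were higher and 3 lower at day 14, beside 36.2% and 18.8%. Ogdh, the E1 of the 2-oxoglutarate dehydrogenase complex, fell by 0.96 on the log2 scale at day 2 (limma, adjusted p = 0.000119), and Ppm1k, the phosphatase that switches on the branched-chain complex, had log2 fold changes of 0.81 at day 2 (adjusted p = 0.0335) and 1.74 at day 14 (adjusted p = 0.000938). The day 2 call of Ppm1k was lost in 8 alternatives (adjusted p up to 0.137), among them without any 1 of the day 0 libraries or without day 2 replicate 1 or 2. Of the 4 tested genes that use or supply acetyl-CoA, 2 rose and 1 fell at day 2, where 59.0% of all tested genes were called, and 1 was lower at day 14, where 18.8% were. Cs, citrate synthase, the next enzyme to take up acetyl-CoA, fell to 85.4 ± 10.9 TPM on day 2 against 197 ± 1.92 TPM on day 0 (mean ± SD, n = 3 each; log2 fold change -1.20, limma, adjusted p = 2.12e-05). Acss2, which makes acetyl-CoA from acetate, rose by 1.11 (adjusted p = 0.00422) and Slc25a1, the citrate exporter, by 0.52 (adjusted p = 0.0268) at day 2. The call of Slc25a1 was lost without day 0 replicate 2 or 3 or day 2 replicate 1 or 3 (adjusted p from 0.0704 to 0.102).

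Of 8 transcription factor genes known to act on Pdk genes, 4 rose and 1 fell at day 2, where 59.0% of all tested genes were called. At day 14, where 55.1% were called, 5 were higher and none was lower by limma (at an unadjusted p under 0.05 also none). Foxo3, a factor that induces Pdk4 in muscle, had 42.1 ± 17.1 TPM on day 2 and 6.37 ± 0.768 TPM on day 0 (mean ± SD, n = 3 each; log2 fold change 2.48, adjusted p = 7.92e-05), and 23.2 ± 7.62 TPM on day 14 (1.67, adjusted p = 0.00113). Ppard, a nuclear receptor, fell by 0.62 on the log2 scale at day 2 (adjusted p = 0.0405), a call that was lost in 10 alternatives (adjusted p up to 0.208), among them without any 1 of the day 0 or day 2 libraries. Without day 14 replicate 3 it was called lower at day 14 as well (adjusted p = 0.0122).

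**Figure D5:**
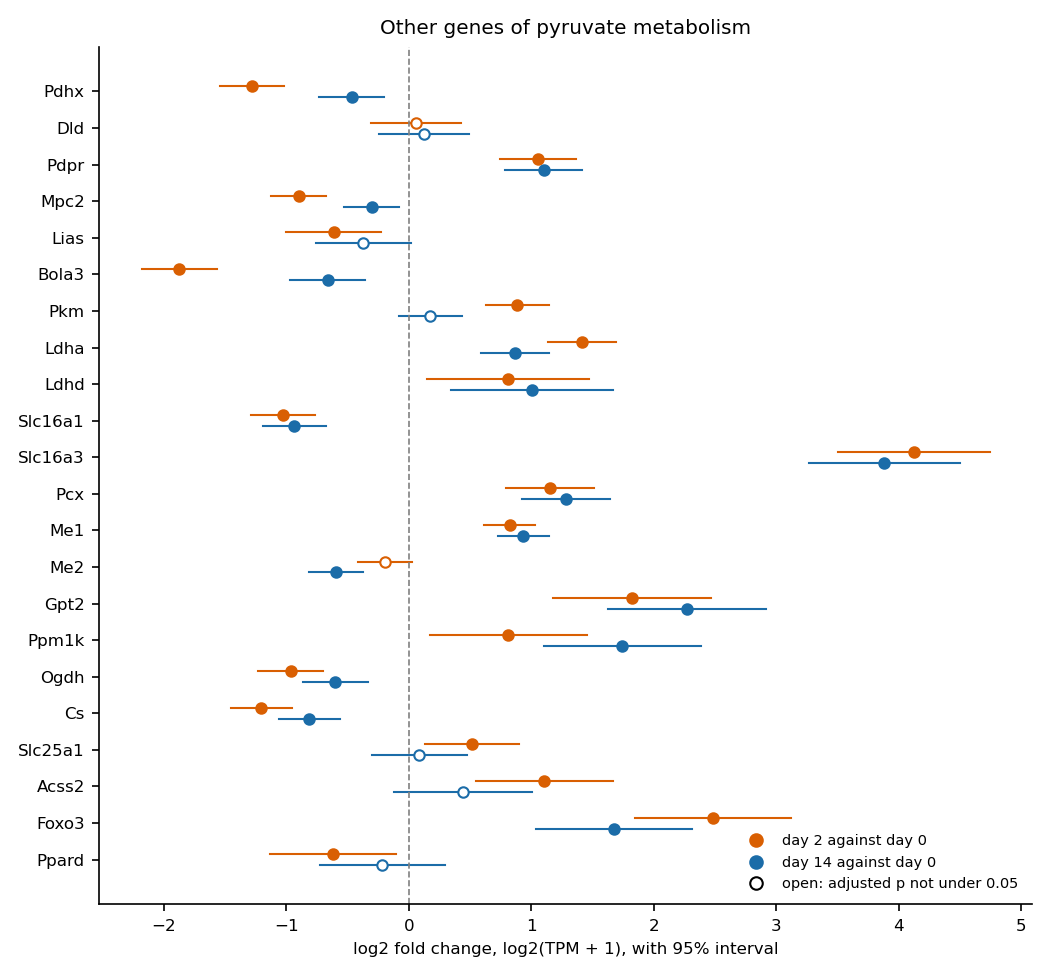
Log2 fold change of log2(TPM + 1) with 95% intervals (horizontal axis) for the named genes of pyruvate metabolism (rows) at day 2 and day 14 against day 0 (colours); filled points passed an adjusted p of 0.05. Slc16a3 lies farthest to the right, at 4.13 and 3.88, and Bola3 farthest to the left at day 2, at -1.87.

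The genes whose pattern over the 9 samples was most like that of Pdk1, by the root mean square difference of log2(TPM + 1) profiles centred on day 0, were Plod2 at 0.228, Ypel3 at 0.251, Tcp11l2 at 0.261, Cdkn1a at 0.272 and Klhl24 at 0.275, out of 7855 genes averaging at least 10 TPM. Plod2, a collagen lysyl hydroxylase, stood at 6.78 ± 0.953 TPM on day 0, 96.4 ± 4.52 TPM on day 2 and 44.6 ± 3.67 TPM on day 14 (mean ± SD, n = 3 each). Cdkn1a codes for the cell cycle inhibitor p21 and had log2 fold changes of 3.40 and 2.73 at day 2 and day 14. For Pdha1 they were Zfp282 at 0.0705, Tnpo3 at 0.071, Polrmt at 0.0758, Tmem201 at 0.0759 and Atg5 at 0.0769. Polrmt, the mitochondrial RNA polymerase, stood at 22.3 ± 0.434 TPM on day 0, 16.5 ± 2.54 TPM on day 2 and 19.2 ± 1.30 TPM on day 14.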

How the data were processed

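Per the submitters' processing notes, transcripts were quantified with Salmon, and the authors deposited gene-level TPM. No version of Salmon, index, genome build or annotation is given in the sources used here. Per the labels, Novogene made the libraries. Each of the 9 deposited TPM columns sums to about 1000000. Columns were matched to samples by title.

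Rows that reached 1 TPM in 3 or more samples went into limma 3.58.1 in R 4.3.3 on log2(TPM + 1), with a mean per day, eBayes with a trend, two-sided p-values adjusted by Benjamini and Hochberg over 12693 rows, and 95% intervals. The fit was tested on simulated data in which 200 genes changed at day 2, whereas 7484 were called in the measured day 2 comparison. That simulation thus says little about a comparison with so many changes. The genes and lists were chosen with earlier results of these data known. Named genes were all 10 members, Pdhx, Dld, Pdpr and Mpc2, and from each pathway list the largest rise and fall among called genes against day 0, or all called genes where 5 or fewer were called. One gene that this rule names is not reported here. Genes of like pattern were the 5 nearest to Pdk1 and to Pdha1, without predicted or small RNA names. The alternatives, 22 in number, changed the pseudocount, filter, scaling, variance model, block or samples. Promoter windows came from RefSeq, and Python 3.11.15 with matplotlib 3.10.9 drew the figures.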

Additional observations from a re-analysis of the deposited data

Results flagged for a closer look

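For 2 of the 10 genes the change since day 0 was unequal at the later times, by the limma contrast of day 14 with day 2, in which 31.2% of all tested genes were called. Pdk1 was lower at day 14 than at day 2 by a log2 fold change of -0.71, in 3 of 3 libraries below every day 2 library (adjusted p = 0.00164). Pdhb was higher at day 14 by 0.44, in 3 of 3 libraries above every day 2 library (adjusted p = 0.00581), a call lost under median-of-ratios scaling and quantile normalization. The log2 fold change from day 0 was 3.58 at day 2 and 2.88 at day 14 for Pdk1, and -0.38 and 0.06 for Pdhb.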

How the results depend on the processing

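TPM keep no read depth, so counting error could not be set beside these values, and with 3 samples a group an exact permutation test cannot go under p = 0.1. Pdk1 and Pdk2 kept direction and call against day 0 under all 22 alternatives, with log2 fold changes from 3.17 to 3.77 and from 1.55 to 2.74 at day 2 and from 2.49 to 2.98 and from 1.59 to 2.79 at day 14. For the named pathway genes, 1140 of 1229 alternative values over 56 results kept direction and call, 74 lost it, 7 gained it and 8 changed sign. The cause of the changes below was not tested.

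At day 2 against day 0, 5 of the 10 genes were higher and 1 lower with the 20 most abundant rows removed. Under quantile normalization 1 of the 10 was lower. All tested genes shifted as well: their median log2 fold change was 0.13 with those rows removed and 0.046 under quantile normalization. It was -0.02 in the main fit. Leaving out a replicate gave 2 to 4 of the 10 genes higher and 3 lower throughout. At day 14 against day 0, where none was lower, 1 was lower with a mean of at least 5 TPM, with the 20 most abundant rows removed, with Mir6236 and Rn45s removed and with the replicate block. It was 2 under median-of-ratios scaling, quantile normalization, sample weights and a fit of only the groups compared, and 0 to 2 when a replicate was left out. Over all genes in that comparison, 2884 were higher under quantile normalization, against 4601, and 4024 were lower under median-of-ratios scaling, against 2389. At day 14 against day 2, 0 of the 10 were higher under median-of-ratios scaling and under quantile normalization, 2 were lower under quantile normalization, and 1 to 2 were higher when a replicate was left out. Over all genes 1585 were higher and 1487 lower under median-of-ratios scaling, and 1477 higher and 1902 lower under quantile normalization, against 3474 and 481. With the 20 most abundant rows removed 807 were lower, with only the groups compared 291, and with a replicate left out 327 to 463.

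Signs that changed were of uncalled log2 fold changes. At day 2 against day 0, Dld was -0.081 with sample weights and -0.12 to 0.19 with a replicate left out, and Me2 was 0.16 under quantile normalization. At day 14 against day 0, quantile normalization gave -0.39 for Pdk4 and -0.27 for Pdp1, and median-of-ratios scaling gave -0.23 for Pdhb, -0.076 for Mpc1, -0.17 for Dld, -0.12 for Pkm and -0.21 for Slc25a1. Pdp2 was 0.0040 with sample weights and -0.099 to 0.071 with a replicate left out, and Slc25a1 was -0.054 to 0.28 with a replicate left out. At day 14 against day 2, median-of-ratios scaling gave -0.23 for Pdk2, -0.23 for Pdk3, -0.11 for Pdp2, -0.11 for Pdha1, -0.050 for Dlat and -0.26 for Mpc1. Quantile normalization gave -0.26 for Pdk2, -0.37 for Pdk3, -0.27 for Pdp2, -0.11 for Pdha1, -0.061 for Dlat and -0.25 for Mpc1. With the 20 most abundant rows removed Pdk2 was -0.076, Pdk3 -0.088 and Mpc1 -0.11, and with Mir6236 and Rn45s removed they were -0.033, -0.047 and -0.062. Leaving out a replicate gave -0.061 to 0.22 for Pdk2, -0.12 to 0.16 for Pdk3, -0.42 to 0.036 for Pdk4 and -0.10 to 0.13 for Mpc1.

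The replicate numbers gave no clear sign of pairing the samples, though correlations cannot exclude it. With day means removed, same-numbered samples correlated at -0.0709 to 0.318. Of the 9 samples, 4 correlated best with one that carries the same number. With the replicate block, 3469 genes were higher and 4113 lower for day 2 over day 0. For day 14 the counts were 4673 and 2443 over day 0, and 3526 and 505 over day 2. The block added a call for Dlat at day 14 against day 0 (adjusted p = 0.047) and ended that of Ldhd at day 2 against day 0 (adjusted p = 0.0517).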
